A study of Mus musculus with 2 samples.

Results

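The data describe 10 mouse genes whose surroundings held many binding sites of FLAG-tagged HLF: Gab2, Gng12, Cacnb2, Sgms1, B4galt5, Atp8b4, Asph, Furin, Lcp1 and Cdc27. They are 10 of 21523 protein-coding genes with a position on chromosomes 1 to 19 or X. They were chosen by the number of peaks in or near the gene in the same peak list, with 4 or more asked for, so their peak numbers are given as a description and carry no test. HLF, hepatic leukemia factor, belongs to the PAR bZIP family of transcription factors, which bind DNA as dimers through a basic leucine zipper. The study mapped its sites by chromatin immunoprecipitation with an anti-FLAG antibody and sequencing (ChIP-seq) in Lin-Sca-1+c-Kit+ cells of C57BL/6 mice aged 8 to 10 weeks, the marker combination of blood stem and progenitor cells. The FLAG-HLF group (n = 1) had been infected with a retrovirus whose transgene is labelled MigR1 3xFLAG-HLF/HLF. The empty-vector group (n = 1) carried MigR1 alone and was not analysed here. Both groups had spent 5 days in culture with IL-3 at 5 ng/ml, Flt3L and IL-7 at 10 ng/ml and SCF at 50 ng/ml. The tagged protein was supplied by a virus, so the sites are those of an introduced protein. Whether animals were pooled is not given in the sources used here, and a peak list holds no expression values with which to check the labelled cell type.

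The 10 genes work in different parts of the cell. Gab2 encodes a docking adaptor that is phosphorylated after cytokine receptor and KIT activation and recruits the phosphatase SHP2 and PI3-kinase. It is needed for normal mast cell signalling in mice. Gng12 encodes a gamma subunit of heterotrimeric G proteins, which carry signals from receptors such as those for chemokines. Cacnb2 encodes an auxiliary beta subunit of voltage-gated calcium channels and is best known from the heart. Sgms1 encodes the Golgi enzyme that makes sphingomyelin from ceramide, and B4galt5 encodes a galactosyltransferase that makes lactosylceramide. Atp8b4 encodes a member of the P4-ATPases, the family of phospholipid flippases. Asph encodes an endoplasmic reticulum enzyme that hydroxylates aspartate and asparagine in EGF-like domains, and its locus also gives rise to the calcium-handling proteins junctin and junctate. Furin encodes a protease that cleaves precursor proteins such as that of TGF-beta. Lcp1 encodes L-plastin, the actin-bundling protein of leukocytes. Cdc27 encodes a subunit of the anaphase-promoting complex, the ubiquitin ligase that drives exit from mitosis.

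The FLAG-HLF list held 3153 peaks, each 400 bp wide on the mm10 build, with no height or score, so the depth and the strength of a peak are unknown. A peak was placed by its centre and was given to a gene when the centre lay in the gene body or within 20 kb of either end. By this rule 9 of the 10 genes had 4 or more peaks. Over all protein-coding genes 17 did, or 0.079%, and nothing is read from this contrast because it chose the genes. Gab2, Asph and Sgms1 had 5 peaks each, the highest number of any protein-coding gene in the list, reached by 4 genes in all. Gng12, Cacnb2, Atp8b4, Furin, Lcp1 and Cdc27 had 4 each. B4galt5 went against the label with 2 peaks, and it reached 5 only when the window was widened to 50 kb. Just outside the threshold were 88 protein-coding genes with 3 peaks, and just inside it 13 with 4. The 10 genes together had 41 peaks, all distinct, which is 1.30% of the list.

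Promoter sequence was set beside the peaks to show what lies at the starts nearest to them. RefSeq promoter windows (GRCm38.p6, 250 bases before to 50 after a start) were matched by gene ID for 8 of the 10 genes, with 15 windows in all. None of the 15 overlapped a peak, against 227 of 32619 windows (0.696%) over all genes. At that share 0 of 15 shows no difference from other genes. None of the 41 peaks overlapped a window of any gene, and 199 of all 3153 peaks (6.31%) did. The 250 bases before a start are shown for 4 windows. Those of Cacnb2, Gng12 and B4galt5 belong to the genes with peaks nearest to a listed start, and that of Lcp1 holds a match to a bZIP motif. Capitals mark matches to the motifs described after the sequences, and the sequences run 5′ to 3′ on the gene's strand.
Cacnb2 internal start, chr2:14823842-14824091, plus strand: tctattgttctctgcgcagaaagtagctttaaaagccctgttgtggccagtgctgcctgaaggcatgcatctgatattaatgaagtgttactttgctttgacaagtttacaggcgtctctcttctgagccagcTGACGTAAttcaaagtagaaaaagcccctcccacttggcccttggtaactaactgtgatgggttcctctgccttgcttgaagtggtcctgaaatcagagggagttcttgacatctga
Lcp1 internal start, chr14:75136175-75136424, plus strand: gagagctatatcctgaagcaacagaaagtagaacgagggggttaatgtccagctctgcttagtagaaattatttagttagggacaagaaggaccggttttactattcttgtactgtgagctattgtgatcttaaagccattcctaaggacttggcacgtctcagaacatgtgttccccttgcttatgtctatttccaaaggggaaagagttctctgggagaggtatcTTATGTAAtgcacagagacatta
Gng12 first start, chr6:66896147-66896396, plus strand: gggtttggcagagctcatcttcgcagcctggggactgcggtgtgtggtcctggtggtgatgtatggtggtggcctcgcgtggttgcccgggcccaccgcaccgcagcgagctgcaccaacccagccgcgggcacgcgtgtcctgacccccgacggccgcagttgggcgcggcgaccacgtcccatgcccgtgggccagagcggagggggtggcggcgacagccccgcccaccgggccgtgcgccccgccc
B4galt5 start, chr2:167349179-167349428, minus strand: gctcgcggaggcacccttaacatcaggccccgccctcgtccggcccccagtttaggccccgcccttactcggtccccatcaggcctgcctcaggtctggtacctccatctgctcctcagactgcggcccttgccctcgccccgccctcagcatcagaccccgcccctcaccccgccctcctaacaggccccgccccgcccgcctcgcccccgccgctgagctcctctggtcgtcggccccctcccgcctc

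These sequences differ in composition. The Cacnb2 and Lcp1 stretches are 46.0% and 41.6% G and C and hold 3 CpG dinucleotides each, whereas those of Gng12 and B4galt5 are 74.4% and 73.2% and hold 28 and 21. Exact matches were sought on both strands over the whole 300-base windows. The palindrome TTACGTAA, which PAR bZIP proteins bind, was in 0 of the 15 windows and in 39 of 32619 over all genes (0.120%). Its relatives with a single base changed, TTACATAA and the reverse complement TTATGTAA, were in 1 of the 15 and in 308 over all genes (0.944%). That match is in Lcp1 and begins 23 bases before the internal start, while the nearest peak centre is 12.1 kb downstream of that start. The C/EBP palindrome TTGCGCAA was in 0 of the 15 and in 60 over all genes (0.184%). The Cacnb2 window holds TGACGTAA, which differs from the PAR bZIP palindrome in 1 base and begins 117 bases before the start. It was searched for after the sequence had been seen, and it or its reverse complement TTACGTCA is in 164 windows over all genes (0.503%). The 4 searches cover different 8-letter words, and a match is no evidence of binding.

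**Figure D1:**
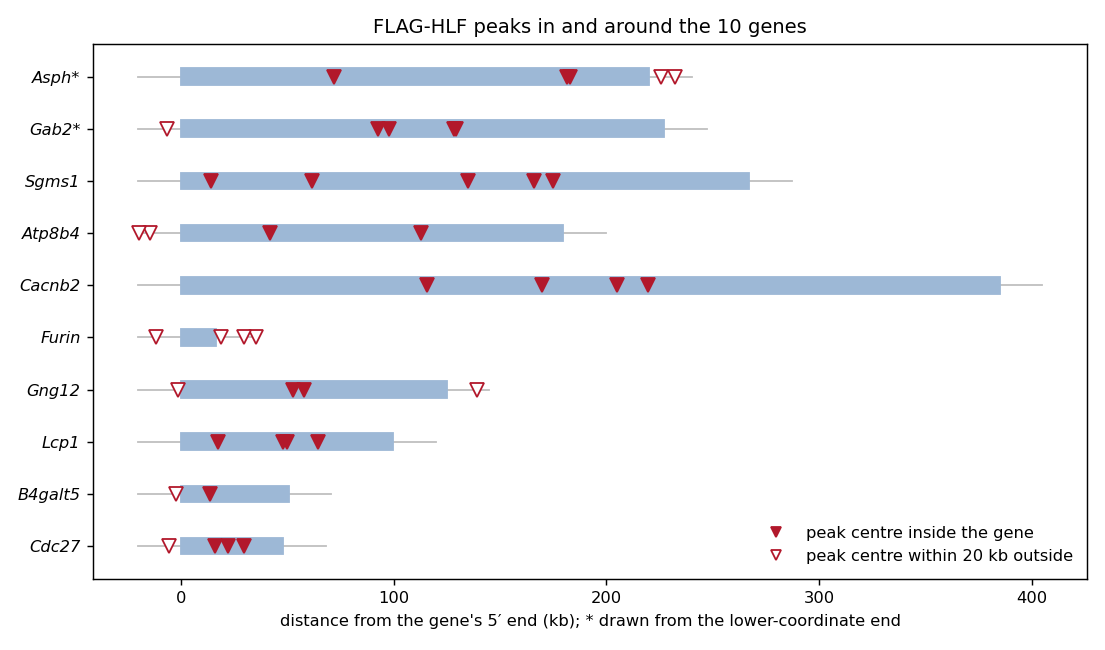
Position of the FLAG-HLF peaks of each gene along a bar from the 5′ end (at 0 kb) to the 3′ end, with 20 kb added on both sides. Asph and Gab2, marked with a star, are drawn from the end with the lower coordinate. Filled triangles are the 28 peak centres inside a gene and open triangles the 13 outside. Furin has open triangles alone, whereas Sgms1, Cacnb2 and Lcp1 have filled triangles alone.

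Gab2 (gene ID 14389; chromosome 7, 97081751 to 97308951) had 4 of its 5 peaks deep in the gene body. Its peaks began at 97075046, 97174209, 97179317, 97209993 and 97211104. The first lay 6.51 kb outside the lower-coordinate end, and the others lay 92.7 and 97.8 kb from that end and 98.8 and 97.6 kb from the other. The inner peaks thus formed a pair 5.11 kb apart and a pair 1.11 kb apart, with 30.7 kb between the pairs. The closer pair left 711 bp of sequence between the edges of its peaks. The outer peak was 99.2 kb from the first of the inner peaks. It was also counted for Nars2, the gene of the mitochondrial asparaginyl-tRNA synthetase, from which it lay 10.5 kb.

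Gng12 (gene ID 14701; chromosome 6, 66896397 to 67021361) had a peak before its start, a pair in its body and a peak beyond its 3′ end. The peaks began at 66895002, 66948856, 66954164 and 67035373. The first was centred 1.20 kb upstream of the first listed start and lay inside the long noncoding RNA gene 4930597O21Rik, 0.557 kb from an end of it. It was the closest of the 41 peaks to an end of its gene. The inner pair lay 52.7 and 58.0 kb downstream of the 5′ end and 5.31 kb apart. The last peak lay 14.2 kb beyond the 3′ end and inside Gadd45a, 0.476 kb from an end of that gene. Gadd45a is a stress-induced growth arrest gene, and this was its only peak, so the peak may be given to either gene by the 20 kb rule.

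Cacnb2 (gene ID 12296; chromosome 2, 14603861 to 14988811) was the longest of the 10 genes at 385 kb and had all 4 peaks inside. The peaks began at 14719365, 14773477, 14808642 and 14823296, at 30.1, 44.1, 53.2 and 57.1% of the body from the 5′ end. Each lay over 100 kb from both ends of the gene. The spacing fell along the gene in the direction of transcription, from 54.1 to 35.2 to 14.7 kb. The last peak was centred 597 bp upstream of the internal start shown above and ended 146 bases before its promoter window. The peak nearest to the first listed start lay 115 kb downstream of it.

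Sgms1 (gene ID 208449; chromosome 19, 32122727 to 32389885), 267 kb long, had all 5 of its peaks inside its body, the most of the 10 genes. On its minus strand the peaks lay 14.2, 61.5, 135.0, 165.8 and 174.9 kb from the 5′ end. They began at 32375469, 32328192, 32254684, 32223854 and 32214827. Neighbouring peaks were 47.3, 73.5, 30.8 and 9.03 kb apart, and no pair was closer than that. RefSeq lists 4 starts for the gene, and the peak farthest from the 5′ end lay 4.01 kb upstream of the last, an internal start. The start before that is internal too, and its nearest peak was centred 20.9 kb downstream. No further peak lay within 200 kb of either end.

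B4galt5 (gene ID 56336; chromosome 2, 167298444 to 167349178) had 2 peaks by the 20 kb rule, at 167335107 and 167351209. They lay 13.9 kb downstream and 2.23 kb upstream of the 5′ end and 16.1 kb apart. Farther upstream there were 3 peaks at 26.1, 33.4 and 39.4 kb from the gene, none of them inside a protein-coding gene. The nearer 2 of these had B4galt5 as the gene with the nearest boundary, and the farthest had Slc9a8, which encodes a sodium/proton exchanger, at 33.0 kb. Another 2 lay at 129 and 142 kb. All 5 of these peaks were on the 5′ side, and none lay between 0 and 200 kb beyond the 3′ end.

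Atp8b4 (gene ID 241633; chromosome 2, 126320973 to 126500669) had 2 peaks inside and 2 upstream. On its minus strand the inner peaks, at 126458746 and 126387624, lay 41.7 and 113 kb from the 5′ end. The outer peaks, at 126514953 and 126520233, lay 14.5 and 19.8 kb upstream of the annotated 5′ end and 5.28 kb apart. The outermost was thus just inside the limit of the 20 kb window. The listed start lies inside the annotated gene, so the same 2 peaks were 23.6 and 28.9 kb upstream of it. With a window of 10 kb the gene would have kept only its 2 inner peaks. No other protein-coding gene lay within 20 kb of any of the 4.

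Asph (gene ID 65973; chromosome 4, 9449085 to 9669344) had 3 peaks inside and 2 outside, gathered toward the end with the higher coordinate. The peaks began at 9520618, 9630606, 9631629, 9674564 and 9681235. The first was 71.7 kb inside the lower end. The next formed the closest pair of all 10 genes, with centres 1023 bp apart at 38.5 and 37.5 kb inside the higher end. The other two lay 5.42 and 12.1 kb outside that end and 6.67 kb apart. No peak of Asph was counted for another protein-coding gene by the 20 kb rule. The annotated Asph and Clvs1 genes overlap by 2607 bp at the lower end, and the boundary nearest to the first peak was that of Clvs1, at 69.1 kb. Clvs1 encodes a phosphoinositide-binding protein of clathrin-dependent traffic, and 2 further peaks lay inside it, 99.4 and 180 kb from Asph.

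Furin (gene ID 18550; chromosome 7, 80389194 to 80405441), the shortest of the genes at 16.2 kb, had no peak inside its body. On the 3′ side 3 peaks, at 80370023, 80375380 and 80386571, lay 18.97, 13.6 and 2.42 kb away, and 1 at 80416808 lay 11.6 kb upstream. All 3 peaks on the 3′ side were also counted for Fes and Man2a2. Fes encodes a tyrosine kinase of myeloid cells, is 1239 bp away from Furin and contained the nearest of these peaks, 1.18 kb from its end. The middle peak lay outside Fes by 2.18 kb. The farthest lay 1.26 kb inside Man2a2, the gene of a Golgi alpha-mannosidase. Each of the 3 was thus closer to a boundary of Fes or Man2a2 than to Furin, and the upstream peak alone had Furin as its nearest gene. Farther upstream 2 peaks lay inside Blm, a DNA helicase gene, at 69.2 and 90.4 kb from Furin.

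Lcp1 (gene ID 18826; chromosome 14, 75131105 to 75230842) had its 4 peaks inside the gene. They began at 75148294, 75178796, 75180706 and 75195565, at 17.4, 48.0, 49.9 and 64.8% of the body from the 5′ end. The middle peaks were 1.91 kb apart, close to the midpoint of the gene. The first was 30.5 kb before this pair and the last 14.9 kb after it. The first peak lay 17.5 kb from Lrrc63, whose annotated end is 142 bp from the beginning of Lcp1, and was therefore counted for both.

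Cdc27 (gene ID 217232; chromosome 11, 104502524 to 104550620) had 3 evenly spaced inner peaks and 1 upstream. On its minus strand they lay 15.8, 22.3 and 29.8 kb from the 5′ end, at 104534605, 104528117 and 104520589, and were 6.49 and 7.53 kb apart. The fourth peak, at 104555994, lay 5.57 kb upstream of the 5′ end, 21.4 kb from the first inner peak. This upstream peak lay 10.2 kb inside Myl4, the gene of an atrial and embryonic myosin light chain whose annotated body overlaps that of Cdc27 by 4604 bp. The 2 inner peaks nearest to the 5′ end were also counted for Myl4, at 11.2 and 17.7 kb. These 2 were nearer to a boundary of Myl4 than to one of Cdc27.

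The position of the 41 peaks is given beside that of the whole list as a description, since the 10 genes were mostly long, and the part of gene length in these positions was not tested. Of the 41 peaks, 28 (68.3%) were inside the gene they were counted for. Over all 4005 pairs of a peak and a protein-coding gene by the 20 kb rule, 1765 (44.1%) were inside. By a different measure, 1742 of the 2554 peaks in or within 20 kb of a protein-coding gene (68.2%) lay inside any such gene. By that measure the outer peaks of Furin, Gng12 and Cdc27 inside Man2a2, Fes, Gadd45a and Myl4 would also count as inside. The shares of 68.3% and 68.2% are therefore not alike in kind, and their closeness carries no meaning. Of the 28, 23 (82.1%) lay over 20 kb from both ends of the gene, 16 (57.1%) over 50 kb and 6 (21.4%) over 100 kb. Over the 1765 pairs of a peak and a protein-coding gene that contains it, these shares were 41.0, 20.2 and 7.03%. The median distance to the nearer end was 37.5 kb, against 10.5 kb over all 4005 pairs of a peak and a gene by the 20 kb rule. It ranged from 1.20 kb in Gng12 to 180 kb in Cacnb2. No peak centre lay within 1 kb of an end of the gene it was counted for. Within 5 kb lay 3 (7.32%), those of Gng12, B4galt5 and Furin. Over all 4005 pairs these shares were 9.56 and 29.3%. For the 8 genes with a listed strand, 13 of 21 inner peaks were in the first 50% of the body and 8 in the rest. The last was at 65.5% of the body, in Sgms1, and none lay nearer to the 3′ end by this measure. Of their 10 outer peaks, 6 were upstream of the 5′ end and 4, at Furin and Gng12, were beyond the 3′ end. Positions relative to the 5′ and 3′ ends were not counted over all genes. Nothing is therefore read from these splits or from the lack of peaks toward the 3′ end.

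**Figure D2:**
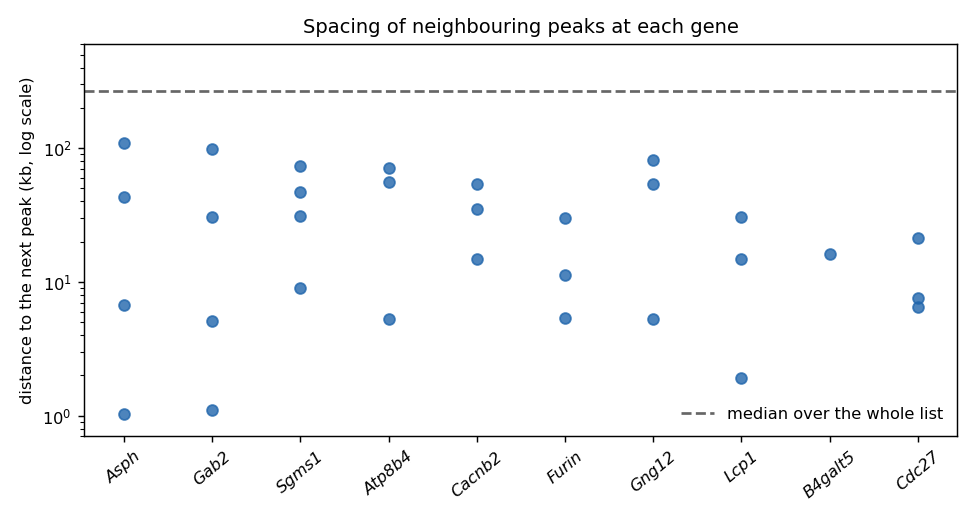
Distance in kb between neighbouring peaks of the same gene, on a log axis, with 1 point for each of the 31 distances. The dashed line is the median of 268 kb over the whole list. The points run from 1.02 kb in Asph to 110 kb in the same gene, and all lie below the line.

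Neighbouring peaks of the same gene were a median of 21.4 kb apart over 31 distances, where neighbouring peaks of the whole list were 268 kb apart over 3133 distances. Genes picked for many peaks within a limited region must have short distances, so this contrast is a description. Of the 31 distances, 11 were within 10 kb and 3 within 2 kb, against 5.90% and 1.69% of those over the whole list. The 3 closest pairs were in Asph, Gab2 and Lcp1, at 1.02, 1.11 and 1.91 kb. Pairs about 5 kb apart were found in Gab2 (5.11 kb), Atp8b4 (5.28 kb), Gng12 (5.31 kb) and Furin (5.36 kb). The spacing was uneven within most genes: in Asph the widest distance, 110 kb, was between the first peak and the closest pair. Cdc27 had the narrowest spread, from 6.49 to 21.4 kb. Sgms1, Cacnb2, B4galt5 and Cdc27 had no pair within 6 kb.

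**Figure D3:**
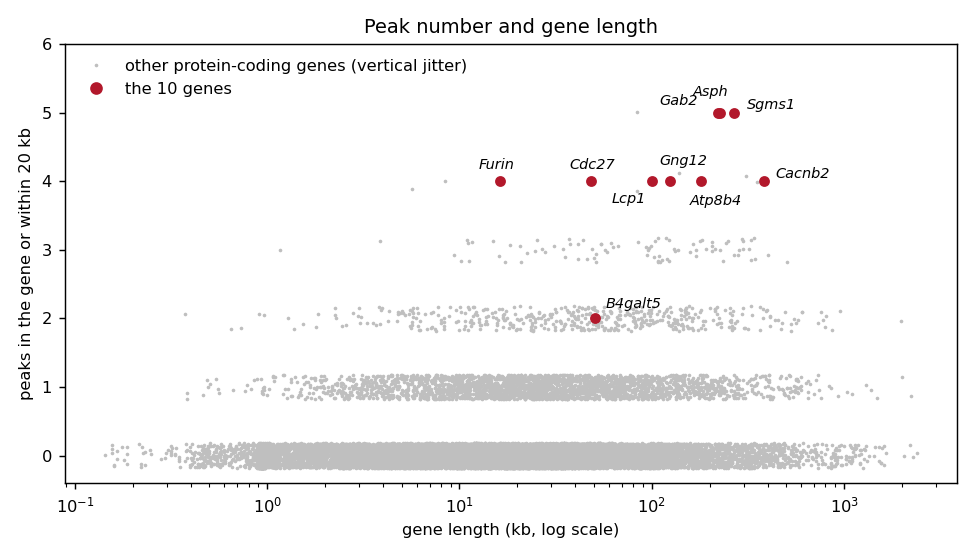
Number of peaks in the gene or within 20 kb against gene length in kb on a log axis, for the 10 genes (red) and all other protein-coding genes (grey, with vertical jitter). Of the 10 genes, 6 are 100 kb or longer, and Furin with 4 peaks is the shortest at 16.2 kb.

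Gene length differed widely among the 10 genes and was mostly great. The median was 152 kb, against 17.4 kb over all protein-coding genes and 98.2 kb over those with 3 peaks. Over those with 4 or more, which include 9 of the 10, it was 125 kb. Of the 10, 6 were 100 kb or longer. Among all protein-coding genes of that length 10 of 2425 (0.412%) had 4 or more peaks, and among shorter genes 7 of 19098 (0.0367%). Per 100 kb of gene and flanks, Cacnb2 had the lowest density at 0.941 peaks and Furin the highest at 7.11, followed by Cdc27 at 4.54 and Lcp1 at 2.86. The part of gene length in the peak numbers was not tested.

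**Figure D4:**
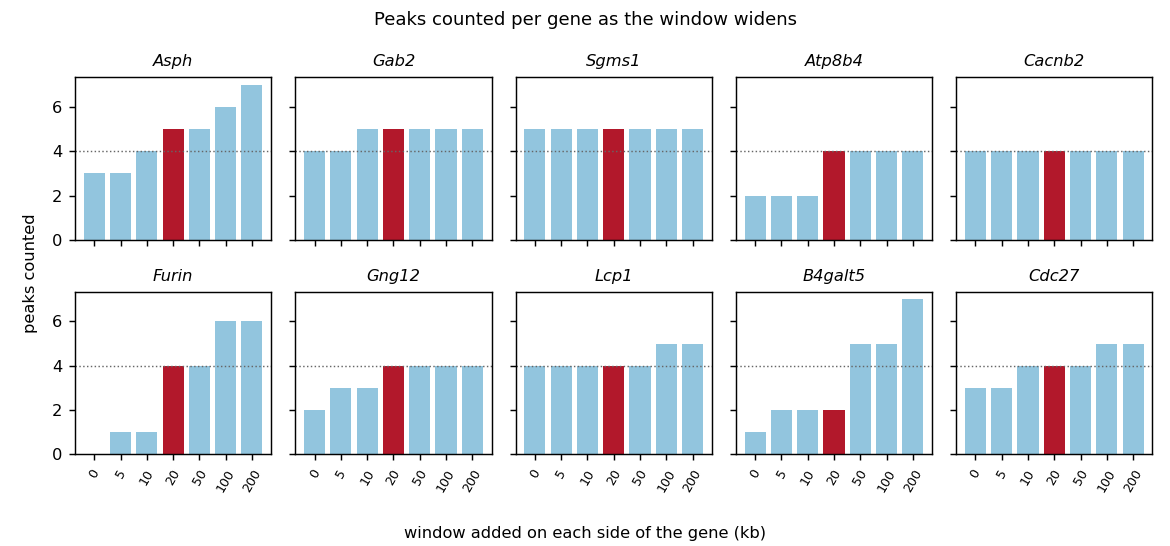
Number of peaks counted for each gene as the window on each side grows from 0 kb (the body alone) to 200 kb, with the 20 kb window in red and 4 peaks as a dotted line. Sgms1 and Cacnb2 stay level at 5 and 4, Furin rises from 0 to 6, and B4galt5 passes 4 between 20 and 50 kb.

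The loci also differed in where their peaks ended. In the gene body alone, Sgms1 had 5 peaks, and Gab2, Cacnb2 and Lcp1 had 4 each. They were 4 of the 6 protein-coding genes with 4 or more peaks in the body (0.0279% of all). Gab2, Sgms1, Atp8b4, Cacnb2 and Gng12 gained no peak between 20 and 200 kb. Lcp1 and Cdc27 gained 1 each, Asph and Furin 2 each and B4galt5 5. Of the 41 peaks, 9 (22.0%) in 5 genes were also counted for a neighbour, against 947 of the 2554 peaks near protein-coding genes (37.1%). The genes were picked by these peaks and differences in gene length were not accounted for. Nothing is therefore read from this contrast, which was not tested. The neighbours were Nars2, Gadd45a, Fes, Man2a2, Lrrc63 and Myl4. No peak of Asph, Sgms1, Atp8b4, Cacnb2 or B4galt5 was shared with a protein-coding gene. When the nearest boundary of any protein-coding gene was taken, 34 of the 41 peaks had their own gene as the nearest, and the other 7 had Fes, Myl4, Man2a2, Gadd45a or Clvs1.

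Relatives and partners of the 10 genes, from lists of 5 to 17 genes for each, were counted by the same rule. Of 112 listed genes 111 were matched, and 26 of them (23.4%, 95% exact Clopper-Pearson interval 15.9 to 32.4%, counting error only) lay near a peak by the 20 kb rule, against 15.3% of all protein-coding genes. None had 4 or more peaks, the median was 0, and 7 of the 111 had 2, where 585 of 21523 protein-coding genes (2.72%) had 2 or more. The lists were chosen with earlier results of these data known, and differences in gene length were not accounted for. Nothing is therefore read from these contrasts, which were not tested. Among P4-ATPases and their partners the count was 6 of 15. Atp8a1 had 2 peaks inside, at 25.2 and 23.5 kb from an end, and Atp10a had 2 inside at 30.6 and 60.6 kb. Atp8b3, Atp8b5, Atp11a and the flippase chaperone gene Tmem30a had 1 each. Of 10 Gab2 relatives and partners 4 had 1 peak each: Ptpn11, which encodes SHP2, Inpp5d, which encodes the lipid phosphatase SHIP1, and the PI3-kinase subunit genes Pik3r1 and Pik3r2. Gab1, Gab3, Grb2 and Sos1 had none.

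Calcium channel genes had peaks in 3 of 14 cases. The pore subunit genes Cacna1a (2 inside, at 116 and 133 kb) and Cacna1d (1 inside at 3.63 kb and 1 outside at 15.3 kb) were among them, and Cacna1s had 1, whereas the other beta subunit genes Cacnb1, Cacnb3 and Cacnb4 had none. G protein beta and gamma genes had 5 of 16, with 1 each at Gng2, Gng4, Gng8, Gnb1 and Gnb5. Galactosyltransferases and glycolipid enzymes had 2 of 8: B4galt1 had 1 peak inside at 1.80 kb and 1 outside at 19.6 kb, and B4galt2 had 2 outside at 5.86 and 10.1 kb. B4galt6, which like B4galt5 encodes a lactosylceramide synthase, had none. Genes of actin-binding proteins had 2 of 7, Pls1 and Actn1, and genes of sphingolipid metabolism and transport 2 of 11, Samd8 and Sptlc2. Relatives of Asph had 1 of 5, Asphd2. Of 17 genes of the anaphase-promoting complex and its helpers only Anapc16 had peaks, 2 outside at 6.49 and 19.1 kb. None of the 8 other proprotein convertase genes of the Furin list had a peak, an interval of 0 to 36.9%. Over all protein-coding genes 15.3% had a peak by the same rule. The lists are short, and a difference between them or from that share was not tested, so nothing is read from a single list.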

How the data were processed

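The authors' deposited file is a peak list from the FLAG-HLF library with the positions of each peak and no score column. Bowtie2 2.0.6, MACS2 2.0.10 and mm10 are named in the submitters' processing notes. Not given in the sources used here are their roles, the threshold, whether the control entered peak calling, and how every peak came to be 400 bp wide. A fixed width hides how far enrichment reached. Libraries had 15 PCR cycles, per the labels' protocols, and depth is unknown.

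Centres were start + 200. Genes came from a RefSeq table (GRCm38.p6, coordinates as in mm10). Of its 49997 rows, 49214 on chromosomes 1 to 19 or X starting at or above 3 Mb were used. Strand came from the promoter windows. The table has no exons, so exons, introns and UTRs were not assigned. Python 3.11.15 and pandas 2.3.3 were used, and the counting was tested on simulated data. No statistical test was made, since the peaks themselves chose the genes and 1 library has no replicate. The members and lists were chosen with earlier results of these data known. Named genes are the 10 members, genes sharing their peaks, and listed relatives with 2 or more peaks, with other relatives by name only. Genes named for lying nearest to a peak or around one, and for having no peak, were chosen after values were seen. Alternatives were other windows, overlap in place of centres, merged peaks, edges, every annotated gene and the nearest boundary.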

Additional observations from a re-analysis of the deposited data

How the results depend on the processing

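The count of genes with 4 or more peaks was 9 at 20 kb, 4 in the gene body alone, 4 within 5 kb, 6 within 10 kb, 10 within 50 kb and 5 by the nearest boundary within 100 kb, where over all protein-coding genes it was 17, 6, 8, 10, 60 and 16. Peaks within 5 kb of an end of their own gene numbered 3, and with classes at 2 and 10 kb, 6 lay within 10 kb. Neighbours sharing peaks numbered 6, and 24 with every annotated gene, 0 in the gene body alone and 1 within 5 kb. Relatives near a peak numbered 26, and 13 in the gene body alone, 14 within 5 kb and 17 by the nearest boundary, with shares of 11.7, 12.6 and 15.3% against 6.94, 9.58 and 10.99% of all genes. These shifts follow from the narrower or wider rule by construction. The number of distinct peaks (28 to 44), the median per gene (3 to 4) and the median spacing (14.9 to 21.4 kb) moved by at most 1.5 times under the alternatives run. Merging joined peaks with centres within 1 kb, and the closest pair of the 10 genes was 1023 bp apart. It could therefore join no peaks of the same gene, so the unchanged values under merging carry no information. Of 70 alternatives for single genes, 16 moved a count by over 1.5 times. With other windows these were at Asph, Atp8b4, Furin, Gng12 and B4galt5. By the nearest boundary within 100 kb, counted for single genes after the data were seen, Cacnb2 went from 4 peaks to 0, Sgms1 from 5 to 3, Cdc27 from 4 to 2, Furin from 4 to 1 and B4galt5 from 2 to 4. The Cacnb2 peaks all lie over 100 kb from the gene's ends. Depth is unknown, so a gene without a peak is not shown to be unbound. No paired analysis was possible because 1 library was analysed, which also leaves no replicate to omit.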

Other observations

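Some bZIP words were more frequent in promoter windows that overlapped a peak anywhere in the list than in all windows. None of the overlapping windows belonged to the 10 genes. TTACATAA or TTATGTAA was in 14 of 227 such windows (6.17%) against 308 of 32619 (0.944%), and TTGCGCAA in 6 (2.64%) against 60 (0.184%). TGACGTAA or TTACGTCA, searched for after the Cacnb2 sequence had been seen, was in 4 (1.76%) against 164 (0.503%). TTACGTAA was in 1 (0.441%) against 39 (0.120%), too few to compare, and the counts of 4 and 6 windows are small too. The 227 windows were overlapped by 199 peaks, so the same site can be counted in more than 1 window. The peaks of the 10 genes lie outside all windows, so the words could not be counted in them, and these shares were not tested.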
